A study of Mus musculus with 2 samples.

Results

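The LIF receptor pathway was followed through 10 genes: the receptor chain genes Lifr, Il6st and Osmr, the relay genes Jak1, Jak2 and Stat3, and the target genes Socs3, Pim1, Pim3 and Bcl3. The genes were chosen by name, with earlier results of these data known. All 25 probe sets annotated to 1 of them alone were used, out of 20380 single-gene probe sets covering 12393 genes. RNA came from E14tg2a, a mouse embryonic stem cell line. One sample was clone 4 of cells that stably carried a hairpin plasmid directed at Dab2 (the shDAB2 clone), and the other was clone 9 of cells that stably carried the control plasmid (the vector clone). Dab2 encodes Disabled-2, an endocytic adaptor protein that also binds signalling receptors. The medium of both clones held 1000 U/ml of LIF and 10% fetal bovine serum, so the pathway was stimulated in both and no culture without LIF was analysed here. There was 1 Affymetrix mouse 430A array per clone. A probe set is a group of short array probes for one transcript, and its deposited value is a log2 signal from RMA, which removes background, equalises the arrays and merges the probes. Values of different probe sets depend on their probes and are not compared with each other. With 1 array per group no test between the groups exists, every value below is a single measurement, and the hairpin, the clone and the culture cannot be told apart.

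Leukaemia inhibitory factor is a cytokine of the interleukin-6 family that holds mouse embryonic stem cells in the undifferentiated state. It joins the LIF receptor chain to the shared chain gp130, which activates the JAK kinases bound to their tails. The JAKs phosphorylate gp130 and then STAT3, which pairs, enters the nucleus and switches on target genes, among them its own inhibitor Socs3. Most of this relay runs through phosphorylation of proteins already made, which RNA levels do not show. Transcripts report on the supply of the components and on the output at the target genes.

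Pim1 was the 1 member of the 10 whose RNA differed by at least 1.5-fold, and it was lower in the shDAB2 clone on both of its probe sets. Among all 7269 genes above the floor, 1.62% were lower by that much and 0.578% higher; at 2-fold the shares were 0.179% and 0.0275%, and no member reached it. The floor is 6.62, the median of all probe-set values, and a gene was above it when the higher of its 2 values reached it. Of the 10 members, 9 were above the floor, against 7269 of all 12393 genes. Of these 9 members 6 were lower and 3 higher in the shDAB2 clone. By sign, 49.3% of the 7269 genes were lower. Osmr was below the floor. Jak2 passed only through its vector value, which fixed the sign of its difference. The median log2 difference, shDAB2 minus vector, was -0.07 over the 9 members above the floor and -0.06 over all 10, against 0.000628 over all genes above the floor. Apart from Pim1, the members lay between -0.23 and 0.23.

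**Figure D1:**
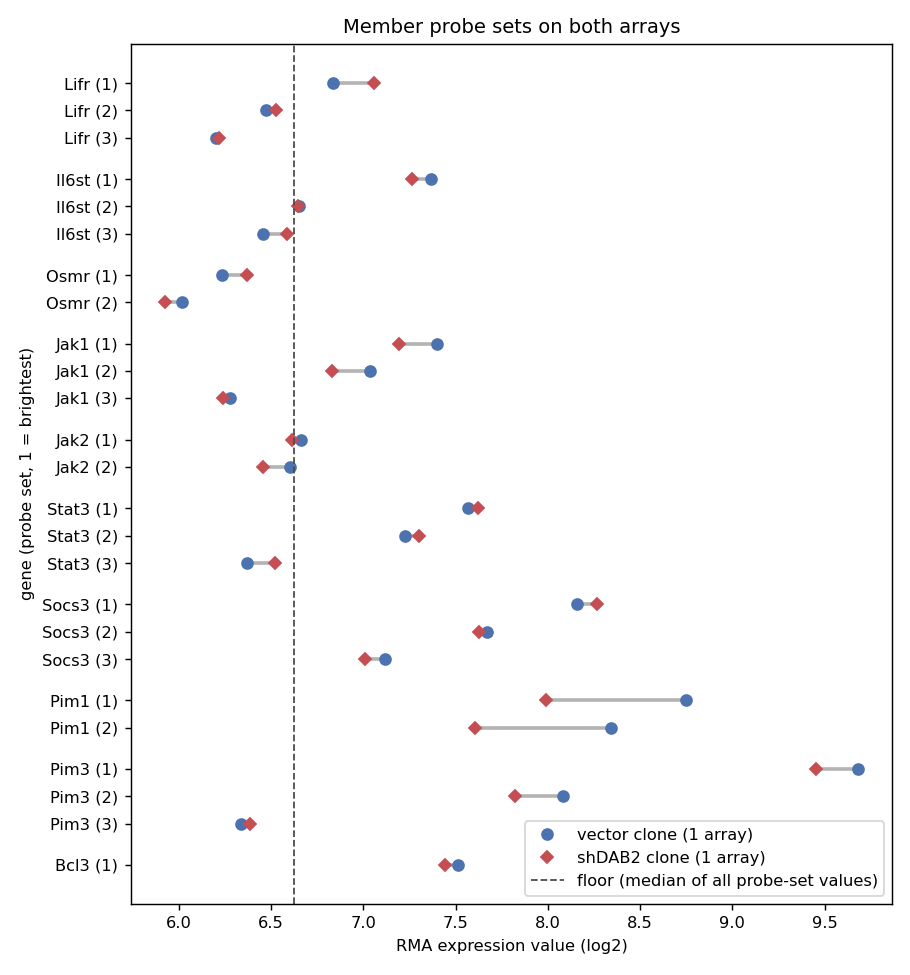
RMA expression value (log2, x axis) of each of the 25 member probe sets (rows, numbered from the brightest) in the vector clone (blue circles) and the shDAB2 clone (red diamonds), 1 array each; the dashed line is the floor of 6.62. The 2 Pim1 rows have the widest gaps, with the shDAB2 value on the left, and both Osmr rows lie left of the floor.

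The labelled cell type was checked against marker genes. Embryonic stem cell markers were above the floor in 9 of 9 genes, with Pou5f1 at 9.93 in the shDAB2 against 9.83 in the vector clone. Of the other lists, 5 of 9 trophectoderm, 3 of 10 primitive endoderm, 1 of 9 fibroblast and 1 of 7 macrophage and blood markers were above the floor. Of all 12393 genes 7269 were above it. Dab2 itself differed by -0.31 on its brightest probe set, which passed the floor through the vector clone alone, and the other 2 probe sets, below the floor, differed by -0.05 and -0.01. The arrays correlated at r = 0.99 over all probe sets.

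The receptor chains showed small differences with mixed signs. Lifr encodes the chain that binds LIF. The brightest of its probe sets read 7.06 in the shDAB2 against 6.83 in the vector clone, a difference of 0.23 on the log2 scale or 1.17-fold higher. The SD of the differences of the 1000 probe sets nearest in mean signal was 0.15 there, so this difference was 1.5 times that spread. The other 2 probe sets of Lifr were below the floor, at 6.52 and 6.47 (difference 0.05) and at 6.21 and 6.20 (difference 0.01). All 3 were higher in the shDAB2 clone, and the size rests on the brightest.

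Il6st encodes gp130, the chain that LIF, interleukin-6 and oncostatin M receptors share. The brightest of its probe sets read 7.26 in the shDAB2 against 7.36 in the vector clone, a difference of -0.10 against an SD of 0.20 at that signal. The second read 6.64 and 6.65, a difference of -0.004. The third, below the floor, read 6.58 and 6.46, a difference of 0.13. These probe sets did not share a sign, and the mean of their differences was 0.01, so no direction can be given for gp130 RNA.

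Osmr encodes the chain that pairs with gp130 for oncostatin M. Its probe sets read 6.37 and 6.23 (difference 0.14) and 5.93 and 6.02 (difference -0.09), with the shDAB2 value first. Both were dim on both arrays and pointed opposite ways. Osmr signal was therefore too near the lower end of the range to compare.

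Both JAK genes read slightly lower in the shDAB2 clone on every probe set. Jak1, the kinase most closely tied to gp130 signalling, read 7.19 in the shDAB2 against 7.40 in the vector clone on the brightest probe set, a difference of -0.20 or 1.15-fold lower. The second read 6.83 and 7.03, a difference of -0.21. On the third, below the floor, the values were 6.24 and 6.28 and the difference was -0.04. The first 2 differences were 0.995 and 1.34 times the SD of probe sets of similar signal, so Jak1 lay at the edge of the common spread.

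Jak2, a second kinase of the same family, read 6.61 and 6.66 on its brighter probe set, a difference of -0.05. The dimmer one, below the floor, read 6.45 in the shDAB2 against 6.60 in the vector clone, a difference of -0.15. Of the 5 probe sets of both kinase genes 5 were lower and 0 higher, with a median of -0.15. By sign 46.7% of all single-gene probe sets were lower, and probe sets of 1 gene are not independent of each other. The largest of the 5 was -0.21.

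Stat3, the transcription factor at the end of the relay, read slightly higher in the shDAB2 clone on each of its 3 probe sets. The brightest read 7.62 in the shDAB2 against 7.57 in the vector clone, a difference of 0.05. The second read 7.30 and 7.23, a difference of 0.08, and the third, below the floor, 6.52 and 6.37, a difference of 0.15. At the first 2 probe sets the difference was 0.24 and 0.37 times the SD of probe sets of similar signal, and at the third 1.77 times. Stat3 RNA thus differed by less than that spread wherever it was above the floor.

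**Figure D2:**
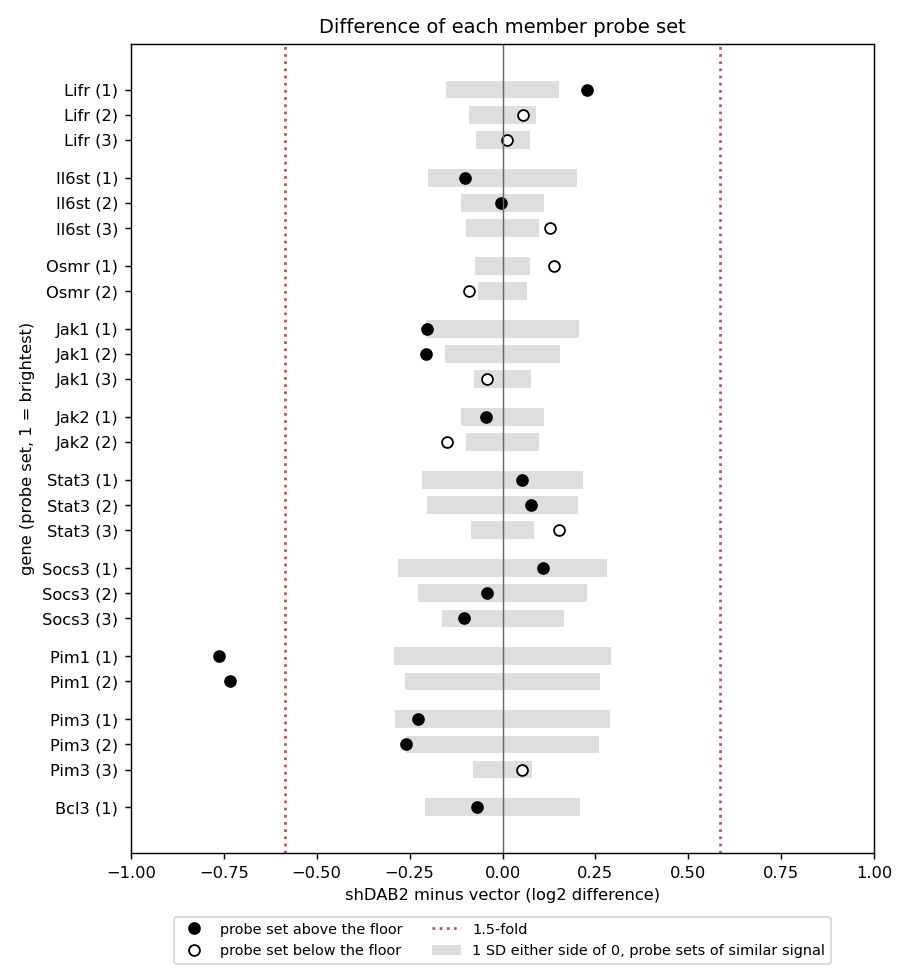
Log2 difference, shDAB2 minus vector (x axis), of each member probe set (rows, numbered from the brightest); filled points are above the floor, open points below it. Grey bars span 1 SD either side of 0 of the 1000 probe sets nearest in mean signal, and dotted lines mark 1.5-fold. Both Pim1 points, at -0.76 and -0.73, lie past the dotted line, and all other members lie between the lines.

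Among the 4 target genes Pim1 was lower by at least 1.5-fold and the other 3 differed by less. Pim1 encodes a serine/threonine kinase that promotes survival and growth and is known to be regulated mainly through its amount. Its brighter probe set read 7.99 in the shDAB2 against 8.75 in the vector clone, a difference of -0.76 or 1.70-fold lower. The other read 7.61 and 8.34, a difference of -0.73 or 1.66-fold lower. The probe sets gave almost the same difference, at 2.60 and 2.80 times the SD of probe sets of similar signal (0.29 and 0.26). Among 20380 probe sets they were the 68th and 74th from the lowest difference, and 0.819% were lower by at least 1.5-fold, while among the 7269 genes above the floor Pim1 was the 47th.

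Pim3, a closely related kinase gene that STAT3 also induces, was lower by less. The brightest of its probe sets read 9.45 in the shDAB2 against 9.68 in the vector clone, a difference of -0.23 or 1.17-fold lower, and the second read 7.82 and 8.08, a difference of -0.26 or 1.20-fold. These were 0.79 and 1.00 times the SD of probe sets of similar signal. The third probe set lay below the floor at 6.39 and 6.33, a difference of 0.05. The first and the third have IDs ending in _x_at, which marks probes that can also match other transcripts. Pim3 thus had the sign of Pim1 on its 2 brighter probe sets, with differences below and at the edge of the common spread.

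Socs3 encodes the feedback inhibitor that binds gp130 and the JAKs and ends the signal, and its transcript is a common readout of STAT3 activity. The brightest of its probe sets read 8.26 in the shDAB2 against 8.16 in the vector clone, a difference of 0.11. The second read 7.63 and 7.67, a difference of -0.04, and the third 7.01 and 7.11, a difference of -0.10. All 3 were above the floor, none differed by more than 0.63 times the SD of probe sets of similar signal, and their signs were mixed. The mean of the 3 differences was -0.01. The brightest and the third are again of the _x_at type; without such probe sets Socs3 stood at -0.04.

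Bcl3, an unusual inhibitor-of-kappa-B protein that works in the nucleus with NF-kappa-B subunits, had 1 probe set. It read 7.44 in the shDAB2 against 7.51 in the vector clone, a difference of -0.07 or 0.33 times the SD of probe sets of similar signal. Over the 4 target genes, 7 of 9 probe sets were lower and 2 higher. The lower ones were both of Pim1, the 2 brighter of Pim3, 2 of Socs3 and that of Bcl3. Lower by sign were 46.7% of all single-gene probe sets, and probe sets of 1 gene are not independent of each other. Without Pim1, the 23 remaining member probe sets lay between -0.26 and 0.23, short of a difference of 0.32 on the log2 scale. Of all 20380 single-gene probe sets 1160 reached that limit in either direction. Among genes above the floor, by their brightest probe set, 6.07% passed it downward and 4.91% upward.

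Counted over all 25 member probe sets, 15 were lower and 10 higher (46.7% and 51.9% of all single-gene probe sets), with a median difference of -0.04 against 0.01 over all single-gene probe sets. In 10 of the 25 the difference was larger than the SD of probe sets of similar signal, 5 of the 16 above the floor and 5 of the 9 below it; over all single-gene probe sets this share was 27.7%. That SD ran from 0.065 at the dimmest member probe set, the second of Osmr, to 0.29 at the brighter one of Pim1. RMA compresses the differences of dim signals.

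**Figure D3:**
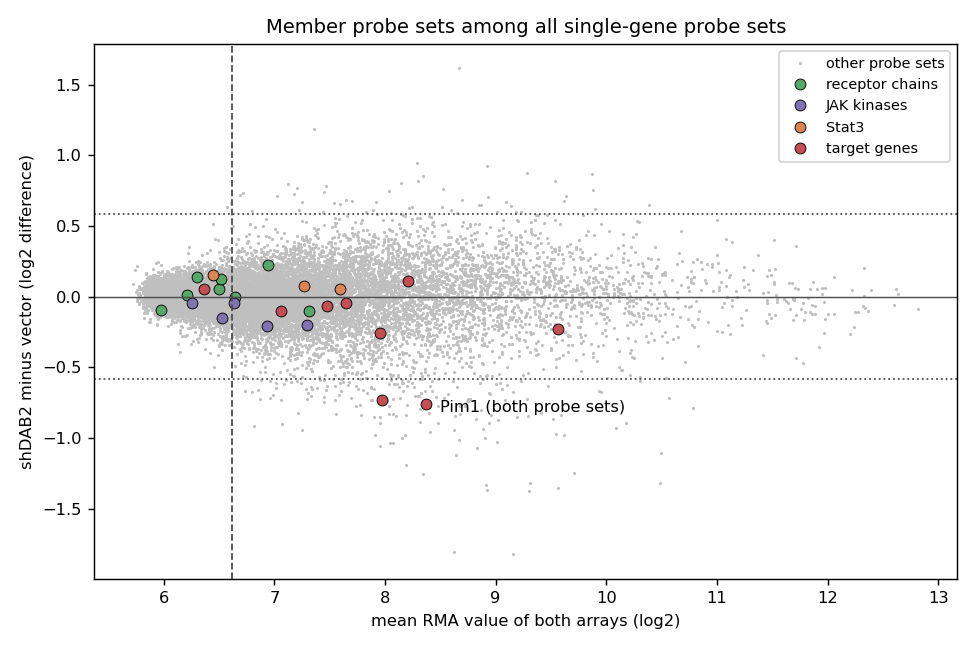
Log2 difference, shDAB2 minus vector (y axis), against the mean RMA value of both arrays (x axis, log2) for 20380 single-gene probe sets (grey), with the 25 member probe sets coloured by role. Dotted lines mark 1.5-fold and the dashed line the floor; the 2 Pim1 points, at -0.76 and -0.73, are the members outside the dotted lines.

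Promoter sequences of the target genes are shown because STAT3 is known to bind the palindrome TTCNNNGAA, in which N is any base, and because both Pim1, which passed 1.5-fold here, and Socs3, which did not, are known targets. The windows are from RefSeq (GRCm38.p6), 250 bases before to 50 bases after an annotated start site, and the palindrome reads the same on both strands. All 10 members matched, with 12 windows, of which 1 (8.33%) held the motif; of all 32851 windows 8.30% did. The match was in Socs3, at bases 154 to 146 before the start. It is printed with 10 bases on each side and the motif in capitals (chr11:117969502-117969530, minus strand). For Pim1 (chr17:29490535-29490784, plus strand) and Pim3 (chr15:88861944-88862193, plus strand), the members with the largest differences among the targets, the 250 bases before the start are given. Neither holds these letters, which says nothing of STAT3 binding there or elsewhere.
Socs3: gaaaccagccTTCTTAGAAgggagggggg
Pim1: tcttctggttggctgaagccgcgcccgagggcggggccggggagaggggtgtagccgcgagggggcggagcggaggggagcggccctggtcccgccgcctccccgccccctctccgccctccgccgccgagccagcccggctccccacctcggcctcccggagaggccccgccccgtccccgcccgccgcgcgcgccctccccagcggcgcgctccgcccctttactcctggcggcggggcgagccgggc
Pim3: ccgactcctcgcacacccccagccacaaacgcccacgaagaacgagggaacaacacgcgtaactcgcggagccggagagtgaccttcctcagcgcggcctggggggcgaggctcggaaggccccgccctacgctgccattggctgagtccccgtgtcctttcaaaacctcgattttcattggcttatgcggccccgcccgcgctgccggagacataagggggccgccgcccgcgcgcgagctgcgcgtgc

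These promoters are rich in G and C. The Pim1 window was 81.3% G or C with 42 CpG sites, and the Pim3 window 69.0% with 40. The Socs3 window was 73.3% with 31. Over the 12 member windows the median was 68.7% with 30 CpG sites, against 52.7% and 7 over all windows. The second annotated starts of Pim1 (49.0%) and Lifr (53.3%) were near that general level.

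The other genes described as STAT3 targets were spread to both sides. Of 26 measured genes of this list 23 were above the floor, 14 lower and 9 higher, with a median of -0.08; 2 were lower by at least 1.5-fold and 0 higher. Rgs16, whose difference of -0.08 is the median, passed the floor through the vector array alone and Dact1 (0.12) through the shDAB2 array alone, which fixed their signs; both are named for this reason. With the floor raised to the 75th percentile of all values the median was -0.29, the value of Zfp36. At that floor Zfp36, Junb and Jun passed through the vector array alone and Klf4 through the shDAB2 array alone. This again fixed their signs, so that median gives no direction for the brighter genes. Klf5, a Krüppel-like factor of the naive state, read 9.08 in the shDAB2 against 10.33 in the vector clone, a difference of -1.249, but its second probe set gave -0.33. Tfcp2l1, another naive factor downstream of STAT3, read 7.57 and 8.22, a difference of -0.65; its other probe sets lay below the floor at -0.07 and -0.04.

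Ccn1, a secreted matrix protein gene, was lower, by -0.54 and -0.55 on its probe sets. Sgk1, a kinase gene that is also a glucocorticoid target, was 0.51 higher. Among genes named after their values were seen, the AP-1 gene Junb differed by -0.51, Cebpb by -0.50 and Noct by -0.41. Jun differed by -0.34 (second probe set -0.10), Zfp36 by -0.29 and Cebpd by -0.25 (second probe set -0.02). The cyclin gene Ccnd1 was 0.35, Gbx2 0.32, Mcl1 0.31 (second probe set 0.02), Klf4 0.26 and Myc 0.25 higher. In the whole list 14 genes were lower and 9 higher.

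Cytokines and the other receptor chains of the family were near the floor. Of 9 measured genes 3 were above it: Ctf1 (cardiotrophin, 0.11), Il6ra (-0.04) and Cntfr (-0.06). Ctf1 and Il6ra passed through 1 array alone, which fixed their signs. The Lif gene itself, named after its value was seen, was below the floor at 6.54 in the shDAB2 against 6.53 in the vector clone. The median of -0.04 became 0.11 when the probe sets of each gene were averaged, which left Ctf1 alone above the floor.

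Of the other JAK and STAT genes 4 of 7 measured were above the floor, 3 lower and 1 higher, with a median of -0.08. Jak3 differed by -0.23, Stat6 by -0.11, Stat5b by -0.04 and Tyk2 by 0.03. Stat5b passed the floor through its vector value alone.

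Inhibitors of the pathway differed little. Of 18 measured genes 14 were above the floor, 9 lower and 5 higher, with a median of -0.03 and 0 past 1.5-fold in either direction. Sh2b3 and Socs7 passed the floor through the vector array alone, which fixed their signs as lower. Pias2, of a family of STAT-binding SUMO ligases, was 0.37 higher, with 0.22 on its second probe set. Socs6 differed by -0.24, with 0.05 on a second probe set below the floor, Socs5 by -0.14 and the adaptor gene Sh2b3 by -0.12.

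LIF also signals through RAS and MAPK and through PI3K and AKT. Of the MAPK branch 9 of 10 measured genes were above the floor, 3 lower and 6 higher, with a median of 0.09. Shc1, an adaptor that links receptors to RAS, was the largest at -0.45, with -0.36 on its second probe set. Nras (0.18, with -0.08 on its second probe set), Map2k2 (-0.16, with -0.01 on its second probe set) and Gab1 (0.14) followed. In the PI3K branch 10 of 12 were above the floor, 3 lower and 7 higher, with a median of 0.02. Its largest differences were Tbx3 (-0.20, with 0.03 on its second probe set), Foxo1 (-0.15), Akt1 (-0.13) and Pdpk1 (0.06, with -0.03 on its second probe set). Pik3r1, named for this reason, passed the floor through the shDAB2 array alone. Neither branch held a gene past 1.5-fold.

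Relatives of Pim1 and Bcl3 differed by less than 1.5-fold. Of 9 measured genes of the list of Pim2 and the NF-kappa-B family 7 were above the floor. Of these, 7 were lower and 0 higher, with a median of -0.20, while 49.3% of all genes above the floor were lower by sign. Relb and Nfkbiz, the latter named for this reason alone, passed through the vector array only, which fixed their signs, and Rel, below the floor and chosen after seeing its value, differed by 0.09. Pim2 read 8.36 in the shDAB2 against 8.56 in the vector clone, a difference of -0.20. Nfkbia, an inhibitor of the NF-kappa-B family, differed by -0.22, the subunit gene Relb by -0.25, and Nfkb2 by -0.21, with 0.02 on the second probe set of Nfkb2. The signs of the 7 were the same after cyclic loess and after median centring. With no floor the median was -0.06, and the largest difference was that of Relb.

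**Figure D4:**
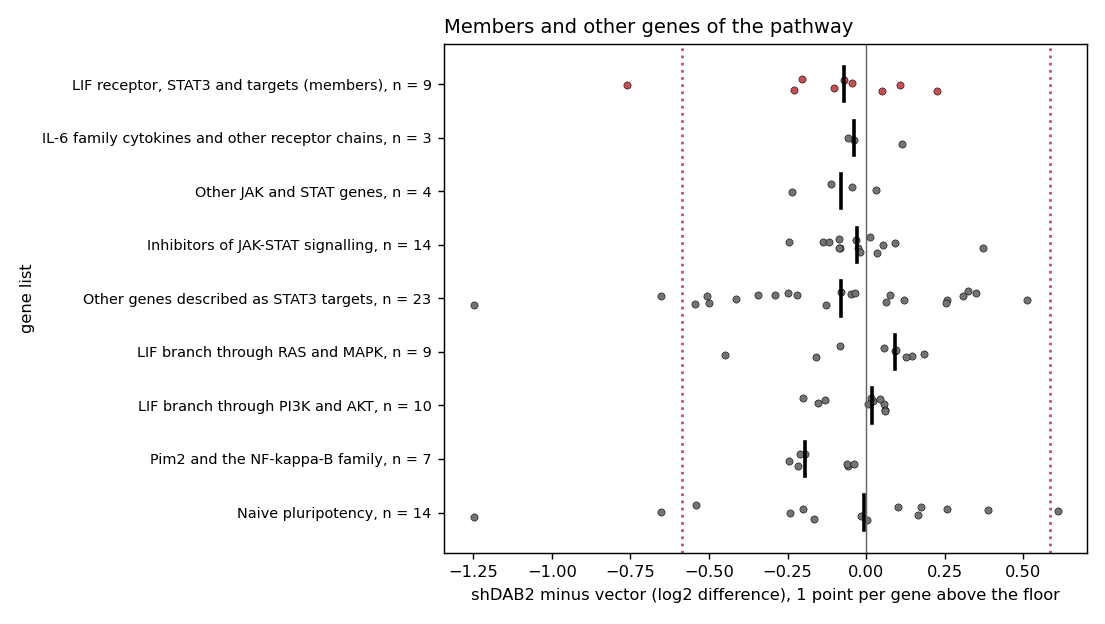
Log2 difference, shDAB2 minus vector (x axis), of each gene above the floor in the member set (red) and in 8 lists of related genes (grey); black bars are medians and dotted lines mark 1.5-fold. The medians run from -0.20 (Pim2 and NF-kappa-B) to 0.09 (RAS and MAPK), and the genes left of the dotted line are Pim1, Klf5 and Tfcp2l1, of which the last pair stand in 2 lists.

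The genes of the naive pluripotency list were split evenly. All 14 measured genes were above the floor, 7 lower and 7 higher (8 and 6 after cyclic loess), with a median of -0.01. Klf5 and Tfcp2l1, which stand in this list too, and Klf2 (-0.54) were lower, and Fgf4 was 0.61 higher on its brightest and 0.34 on its second probe set. Sox2 differed by -0.17, Pou5f1 by 0.10 and Nanog by -0.02. Over all 8 lists, 80 genes outside the members were above the floor, 2 of them lower by at least 1.5-fold (Klf5 and Tfcp2l1) and 1 at least 1.5-fold higher (Fgf4). The Fgf4 call was lost after cyclic loess, and with the mean of probe sets 1 lower and 0 higher genes were left.

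One group of markers of another cell type differed in the direction of Pim1. Of 9 trophectoderm markers 5 were above the floor and 5 of those were lower, 3 of them at least 1.5-fold, with a median of -0.72. Over all genes above the floor, 49.3% were lower by sign and 1.62% by at least 1.5-fold. The summed linear signal of the 9 was 2799 in the shDAB2 against 5046 in the vector clone. Krt8 and Krt18 had the highest values of the list on both arrays, so this sum reflects mainly them. The keratin genes Krt18 (-1.32), Krt7 (-0.82) and Krt8 (-0.72) had the largest differences of the list. The regulator gene Tfap2c differed by -0.47, with all of its probe sets lower, and Hand1 by -0.02. The regulators Cdx2 (-0.03), Eomes (0.11), Elf5 (0.07) and Gata3 (-0.02) were below the floor on both arrays. Whether trophectoderm cells were present, and whether they had a part in the Pim1 difference, was not tested. In RNA from whole cultures, fewer cells of a type and less RNA per cell cannot be told apart.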

How the data were processed

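RNA abundance was measured in 1 shDAB2 clone and 1 vector clone of mouse embryonic stem cells. The deposited table holds log2 values, 1 for each probe set on each array. RMA, which subtracts background, quantile-normalizes and summarises probes, made these values, per the submitters' processing notes; its version and the log base are unstated in the labels, and log2 was taken from the values' range of 5.65 to 12.86. No detection calls were used. The number of arrays limits the precision, since the spread between cultures or clones cannot be estimated.

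The platform annotation named the probe sets, and symbols were updated through RefSeq gene IDs; 691 probe sets with several genes and 1555 not named there were left out. A gene took its brightest probe set by mean. Differences are shDAB2 minus vector on the log2 scale; called means at least 1.5-fold, and no p-value was computed. The SD at similar signal uses the 500 probe sets on either side in mean signal. Named genes are the members, up to 4 genes per list with the largest absolute difference above the floor, Dab2, Pou5f1, Sox2 and Nanog. Other genes, and the cell type markers singled out, were chosen after their values were seen. The members and lists were chosen with earlier results of these data known. Calculations used Python 3.11.15, R 4.3.3 and limma 3.58.1 (cyclic loess, an alternative), and were tested on simulated data. Other alternatives were median centring, the mean of probe sets, probe-set types, the floor and the fold limit.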

Additional observations from a re-analysis of the deposited data

How the results depend on the processing

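The call of Pim1 held under every alternative except the 2-fold limit, which left 0 members; its difference ran from -0.79 to -0.75. The count of higher members stayed at 0 in all 8 alternatives, and the members' median ran from -0.10 to -0.06. The value of -0.10 came with the floor at the 75th percentile and is that of Il6st. Il6st and Jak1 passed that floor through the vector array alone, which fixed their signs. Among the related genes outside the members, 2 were lower and 1 higher at 1.5-fold. Taking the mean of probe sets left 1 lower and 0 higher, cyclic loess 0 higher, and removing probe sets ending in _s_at, _x_at or _a_at 1 lower. A limit of 0.32 on the log2 scale, which by construction cannot give fewer, gave 9 lower and 6 higher of 80 genes. Of all genes above the floor, 6.07% and 4.91% passed that limit. A 2-fold limit left 1 lower and 0 higher. The median of the IL-6 family list turned to 0.11 with the mean of probe sets, which left Ctf1 alone above the floor. That of the other STAT3 targets turned to -0.29 with the higher floor. That of Pim2 and NF-kappa-B turned to -0.061 with no floor. Each of these settings changed which genes entered the median. The means of probe sets of Lifr (0.10), Il6st (0.01), Osmr (0.02) and Socs3 (-0.01) and Socs3 without _x_at probe sets (-0.04) moved by more than 0.106, the SD of 1 probe set over 2502 genes with several. Dim signal limits Osmr, Jak2 and the cytokine genes. No paired analysis was possible because each group holds 1 array.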
